A study of Mus musculus with 4 samples.

Results

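Chemokines are small secreted proteins that guide migrating cells along gradients, and their receptors are G protein-coupled proteins on the surface of those cells. The families are named for the spacing of conserved cysteines (CC, CXC, CX3C and XC), and most serve leukocytes, while Cxcl12 and its receptor Cxcr4 also act in the migration and niche of germ cells and other stem cells. In the mouse testis, chemokines bear on the macrophages of the interstitium and on the spermatogonial niche. The members described here were taken by name: every symbol of the deposited count table made of Ccl, Cxcl, Cx3cl, Xcl, Ccr, Cxcr, Cx3cr or Xcr, a number and at most 1 lower-case letter. This gave 58 genes of the 22609 in the table, 39 ligands and 19 receptors.

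The material was polyadenylated RNA of whole testes of mice at postnatal day 3 on a C57BL/6J dominant background, read as single-end sequences of 100 bases. The mutant group had 2 libraries labelled with a dominant-negative TR_alpha_1, the thyroid hormone receptor made from Thra, and the wild-type group had 2 libraries labelled with the wild-type receptor. Dominant-negative means that the altered receptor blocks the action of the normal one. All animals came from crosses of AmhCre mice, in which Cre is driven in Sertoli cells, with heterozygous carriers of TRαAMI, and the labels do not say which of the controls carried Cre or the allele. Libraries are named by group and number. The labels name no litter, day or batch and do not say that each library came from its own animal, and a p-value here reflects the spread among these libraries alone, which may be technical.

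Gene counts summed to 11089136 and 15636832 in mutant libraries 1 and 2, against 13228903 and 10230512 in wild-type libraries 1 and 2. The targeted gene Thra was read at 237 and 194 CPM (counts scaled to a common library size) in mutant testes and at 398 and 257 CPM in wild-type testes, and counts per gene cannot separate its alleles, so they do not check the labels. Testis markers were read in every library: the Sertoli list (10 genes, among them Sox9 and Amh) summed to 6400 to 6420 CPM in mutant and 7430 to 8070 CPM in wild-type testes, and Leydig and germ cell markers were also present. Skeletal muscle markers stood apart, at 2450 and 630 CPM in mutant libraries 1 and 2, against 14.1 and 13.2 CPM in wild-type libraries 1 and 2. Mesothelial markers were higher, at 570 and 658 CPM in mutant and 402 and 436 CPM in wild-type libraries 1 and 2. Adipocyte markers were lower, at 217 and 154 CPM in mutant and 290 and 251 CPM in wild-type libraries 1 and 2. Lpl, which was not called, made up most of that sum. Of the 7 adipocyte markers 4 were called lower (Fabp4, Adipoq, Cidec and Retn). Fabp4 was at 12.4 and 8.75 CPM in mutant and 50.5 and 52.2 CPM in wild-type libraries 1 and 2. Whether the groups differed in tissue taken along with the testis was not tested. In whole testes, fewer cells of a type and less RNA per cell cannot be told apart.

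Of the 58 members, 21 passed the filter on low counts and were tested, 13 ligands and 8 receptors. A further 26 had some counts but too few to test, and 11 had none in any library. In mutant testes 4 ligands rose, the CC chemokines Ccl6, Ccl17 and Ccl9 and the CX3C chemokine Cx3cl1, and no member fell. These 4 are 19% of the tested members, while 5.67% of all 14788 tested genes were called in either direction, 3.15% higher and 2.52% lower. The filter keeps genes by their own counts, so this share describes the tested members and not all 58. The call was an adjusted p below 0.05 by edgeR's quasi-likelihood test with Benjamini-Hochberg adjustment over all tested genes. No tested receptor was called, including Ccr1, a receptor for Ccl6 and Ccl9, and Cx3cr1, the receptor for Cx3cl1. The median log2 fold change (mutant minus wild type) of the 21 tested members was 0.19, against -0.01 over all tested genes, and 13 of the 21 were above 0, against 49.2% of all tested genes.

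**Figure D1:**
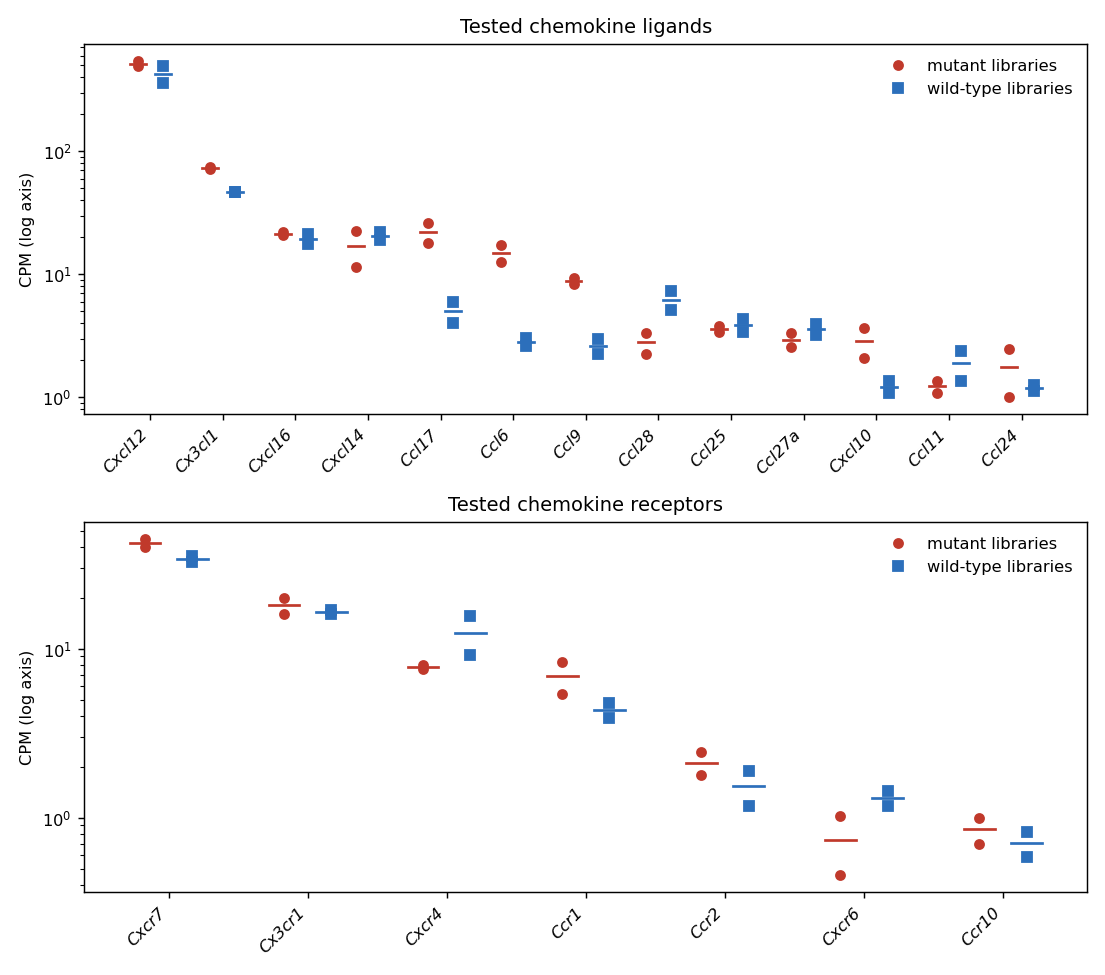
CPM on a log axis for the 13 tested ligands (top) and 7 tested receptors (bottom), ordered by mean level, with mutant libraries as circles, wild-type libraries as squares and a bar at each group mean (n = 2 libraries each). The mutant libraries of Ccl17, Ccl6, Ccl9 and Cx3cl1 all lie above the wild-type ones, and Cxcl12 is the highest member by CPM in every library.

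Ccl6 is a mouse CC chemokine of macrophages and other myeloid cells that binds Ccr1. It was read at 12.6 and 17.2 CPM in mutant libraries 1 and 2, against 2.63 and 3.04 CPM in wild-type libraries 1 and 2. The mutant libraries were well above both wild-type libraries. The log2 fold change was 2.42 ± 0.27 (standard error, SE), a 5.35-fold rise (edgeR adjusted p = 0.00616), and the groups rested on 408 mutant and 66 wild-type counts. Among all tested genes this was the 127th largest log2 fold change. On mm9 (positions of GENCODE M1), Ccl6 lies on chromosome 11 from 83401384 to 83406589, minus strand.

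Ccl9, its neighbour and close relative in the same gene cluster, also binds Ccr1 and is made by macrophages. Its levels were 8.37 and 9.38 CPM in mutant libraries 1 and 2, and 3.00 and 2.25 CPM in wild-type libraries 1 and 2. The groups did not overlap, and the libraries within each group lay close together. Ccl9 rose 3.33-fold, a log2 fold change of 1.74 ± 0.27 (SE; edgeR adjusted p = 0.0171). Ccl9 runs from 83386421 to 83392138 on the minus strand of chromosome 11. The cluster on that chromosome also holds Ccl3, Ccl4 and Ccl5, attractants of monocytes and T cells, which together were barely read: each had 0 to 4 counts in every library.

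Ccl17 attracts T helper and regulatory T cells through Ccr4 and is known from dendritic cells and thymus. It was read at 26.3 and 17.9 CPM in mutant libraries 1 and 2, against 4.06 and 5.98 CPM in wild-type libraries 1 and 2. Mutant library 1, the library richest in muscle transcripts, was the highest, and mutant library 2 was still above both wild-type libraries. Ccl6 and Ccl9 were instead higher in mutant library 2 than in mutant library 1, and any part of muscle tissue was not tested. Ccl17 rose 4.42-fold, a log2 fold change of 2.15 ± 0.28 (SE; edgeR adjusted p = 0.00965). Per kilobase of exon, and averaged over the 4 libraries, Ccl17 was the second highest of the 57 members with a known exon length, with 43.1 CPM per kb in mutant and 9.78 CPM per kb in wild-type testes. Its gene lies on chromosome 8 from 97334353 to 97335935, plus strand.

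Cx3cl1, called fractalkine, is a chemokine tethered to the membrane that both holds and attracts cells bearing Cx3cr1, such as monocytes and tissue macrophages. Its levels were 74.0 and 71.2 CPM in mutant libraries 1 and 2, and 46.6 and 47.1 CPM in wild-type libraries 1 and 2. Within each group the libraries were nearly equal. Cx3cl1 had the most counts (3030 over all libraries) and the smallest standard error of the 4 called members. Cx3cl1 rose 1.55-fold, a log2 fold change of 0.63 ± 0.09 (SE; edgeR adjusted p = 0.0155). Cx3cl1 (97295909 to 97306323) neighbours Ccl17 on the plus strand of chromosome 8, as does Ccl22 (97269490 to 97275599), the other ligand of Ccr4. Ccl22 had 5 and 0 counts in mutant libraries 1 and 2 and 0 counts in both wild-type libraries.

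**Figure D2:**
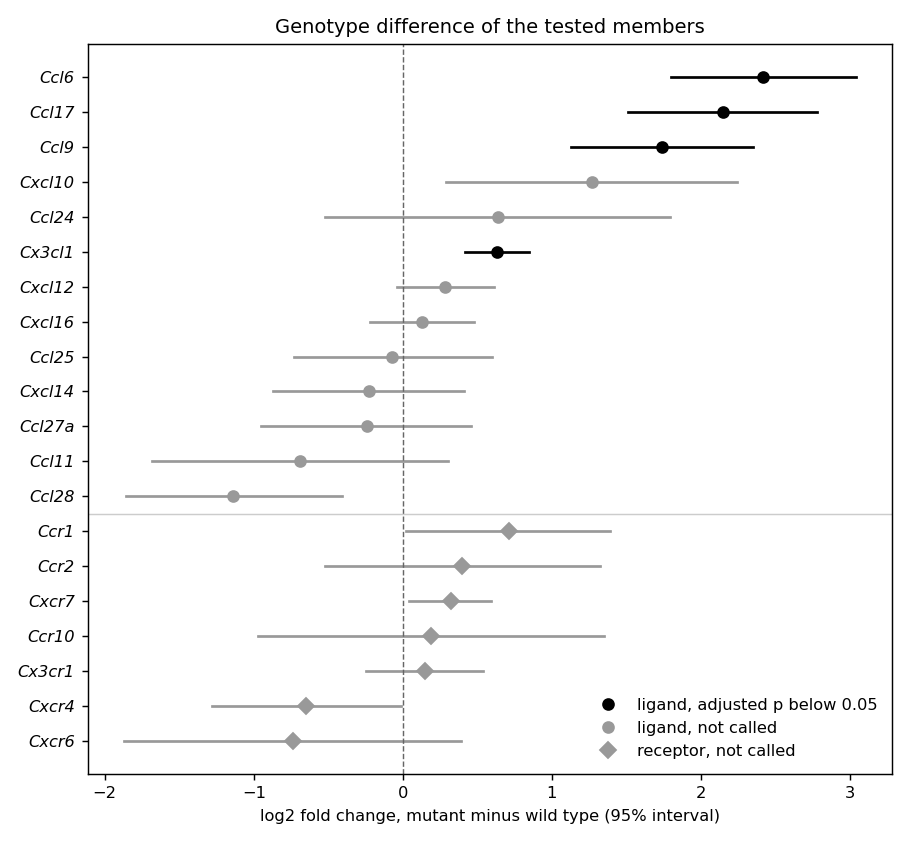
Log2 fold change of 20 tested members (mutant minus wild type) with its 95% interval, ligands above and receptors below the line, and called members in black. Ccl6, Ccl17, Ccl9 and Cx3cl1 are the only called members, and Ccl28 (-1.14) and Cxcr6 (-0.74) have the lowest values of their role.

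These 4 calls depended on the wild-type libraries. Without wild-type library 1 none of the 4 was called, with edgeR adjusted p from 0.0765 (Ccl6) to 0.087 (Ccl17), and with log2 fold changes of 2.30 for Ccl6, 1.86 for Ccl17, 1.98 for Ccl9 and 0.62 for Cx3cl1. Without wild-type library 2, Ccl6 (2.51) and Ccl17 (2.42) were called, each at an adjusted p of 0.0464, while Ccl9 (1.57, adjusted p = 0.081) and Cx3cl1 (0.64, adjusted p = 0.0649) were not. All 4 kept positive log2 fold changes when either mutant library was left out. Mutant library 2 also held muscle transcripts (630 CPM, against 14.1 and 13.2 CPM in wild-type libraries 1 and 2). Leaving out mutant library 1 therefore cannot separate muscle from genotype. Over all genes, the test called 74 genes without wild-type library 1 and 148 without wild-type library 2, against 839 in the full fit.

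**Figure D3:**
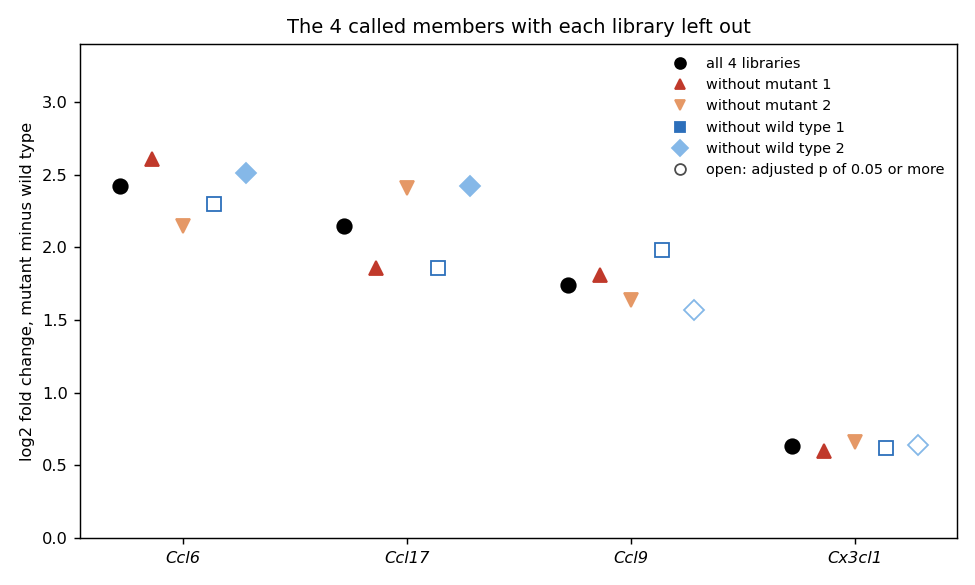
Log2 fold change (mutant minus wild type) of the 4 called members with all libraries and with each library left out in turn, open symbols marking an adjusted p of 0.05 or more. Every value of Ccl6, Ccl17 and Ccl9 lies above 1.5 and every value of Cx3cl1 between 0.60 and 0.66, and all open symbols belong to fits without a wild-type library.

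The promoters of the 4 called genes are shown because these genes moved the same way. They are the RefSeq windows from 250 bases before to 50 bases after the gene start on GRCm38.p6, read along the gene's own strand, 5′ to 3′. Capitals mark, on either strand, the letters TATAAA (the box near many gene starts), AGGTCA (the half-site that thyroid hormone receptors bind in pairs) and GGAAGT (the core of sites of Ets factors such as PU.1 of myeloid cells).
Ccl6, chr11:83593038-83593337, minus strand: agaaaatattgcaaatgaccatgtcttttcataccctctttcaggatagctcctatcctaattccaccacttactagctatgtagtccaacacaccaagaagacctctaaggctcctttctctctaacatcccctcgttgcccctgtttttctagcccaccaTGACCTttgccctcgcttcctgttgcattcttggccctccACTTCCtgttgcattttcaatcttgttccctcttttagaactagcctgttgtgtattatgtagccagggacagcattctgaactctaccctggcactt
Ccl9, chr11:83578587-83578886, minus strand: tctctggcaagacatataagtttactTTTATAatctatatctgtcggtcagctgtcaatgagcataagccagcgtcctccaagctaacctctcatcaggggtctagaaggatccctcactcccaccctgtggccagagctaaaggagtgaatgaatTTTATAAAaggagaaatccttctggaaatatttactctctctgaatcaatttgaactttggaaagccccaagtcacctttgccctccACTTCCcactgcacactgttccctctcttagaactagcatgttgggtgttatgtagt
Ccl17, chr8:94810203-94810502, plus strand: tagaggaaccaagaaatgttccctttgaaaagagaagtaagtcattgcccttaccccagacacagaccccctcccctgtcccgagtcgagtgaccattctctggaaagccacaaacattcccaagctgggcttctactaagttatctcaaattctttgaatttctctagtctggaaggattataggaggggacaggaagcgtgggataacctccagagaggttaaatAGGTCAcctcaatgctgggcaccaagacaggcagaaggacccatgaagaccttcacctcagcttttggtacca
Cx3cl1, chr8:94771930-94772229, plus strand: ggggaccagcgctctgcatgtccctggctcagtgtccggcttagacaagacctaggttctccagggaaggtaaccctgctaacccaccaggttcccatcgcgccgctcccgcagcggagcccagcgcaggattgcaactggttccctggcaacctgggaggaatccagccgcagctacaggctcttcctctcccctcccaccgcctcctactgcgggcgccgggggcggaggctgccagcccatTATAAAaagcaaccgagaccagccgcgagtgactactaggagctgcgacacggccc

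AGGTCA stood in the Ccl17 window 23 bases before the start and, on the opposite strand, in the Ccl6 window 88 bases before it. It was not among the letters of the Ccl9 and Cx3cl1 windows, and 16.3% of all 32851 RefSeq windows hold it. Of the 15 tested members with such a window, 5 hold AGGTCA, among them the uncalled Ccl25, Ccl27a and Cxcl14. GGAAGT was in 23.8% of all windows and in 5 of those 15 members, among them the uncalled Ccl25, Ccl28 and Cxcl10. On the opposite strand, it stood 48 bases before the start of Ccl6 and 7 bases before that of Ccl9. Around it, the Ccl6 and Ccl9 windows shared a run of 13 bases, GCCCTCCACTTCC. TATAAA stood 6 bases before the start of Cx3cl1. In the Ccl9 window it stood 224 bases before the start, and at 94 and 92 bases, where matches on both strands overlap. Of all windows, 13.6% hold it. The other motifs searched gave fewer matches: TTCNNNGAA (STAT factors; 8.3% of windows) matched in Ccl17 alone of the 4, and the kappaB consensus (8.46% of windows) in Ccl9 alone. The Cx3cl1 window was rich in G and C (64.7%, with 19 CpG), against 45.3% in Ccl6, 43.7% in Ccl9 and 48.0% in Ccl17, around a median of 52.7% over all windows. A match is a description of letters, and binding was not measured.

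Ccl6 and Ccl9 are genes of myeloid cells, and markers of such cells moved with them. All 16 macrophage and monocyte markers had positive log2 fold changes, of which 3 were called (Laptm5, Csf1r and C1qb). Among all tested genes 49.2% had positive log2 fold changes and 3.15% were called higher. Csf1r and C1qb were called in the fit without mutant library 1 and in none of the other 3 leave-one-out fits. The list's summed level was 478 and 656 CPM in mutant libraries 1 and 2, and 307 and 384 CPM in wild-type libraries 1 and 2, a ratio of means of 1.64, and no marker of the list was at 0. The neutrophil list summed to 16.1 and 16.4 CPM in mutant testes and 3.30 and 3.33 CPM in wild-type testes, with both tested members, S100a8 and S100a9, called higher, calls lost without wild-type library 1 and, for S100a8, also without wild-type library 2. The mast cell list summed to 140 and 150 CPM in mutant and 45.7 and 63.9 CPM in wild-type testes, with 3 of 5 tested members called higher, the proteases Cpa3, Cma1 and Tpsb2. Mcpt4 and Hdc of that list were not called. Hdc was at 21.7 and 19.3 CPM in mutant libraries 1 and 2 and 21.5 and 25.2 CPM in wild-type libraries 1 and 2, with overlapping groups. The part of these cells in the chemokine result was not tested.

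Set against the macrophage sum of the same library, Ccl6 amounted to 2.63% in each mutant library, and to 0.857% and 0.79% in wild-type libraries 1 and 2. Ccl9 amounted to 1.75% and 1.43% in mutant libraries 1 and 2, and to 0.979% and 0.586% in wild-type libraries 1 and 2. For Ccl17 the shares were 5.5% and 2.72% in mutant libraries 1 and 2, against 1.32% and 1.56% in wild-type libraries 1 and 2. For all 3 genes both mutant shares were above both wild-type shares. This holds for the macrophage sum alone. The neutrophil and mast cell sums differed more between the groups (ratio of means 4.9 and 2.64, against 1.64 for macrophages), and shares of them were not taken. Which cells made these chemokines was not tested. Cx3cl1 amounted to 15.5% and 10.9% in mutant libraries 1 and 2, and to 15.2% and 12.3% in wild-type libraries 1 and 2, with overlapping groups. Ccr1 stood at 1.12% and 1.27% in mutant libraries 1 and 2 and at 1.27% and 1.25% in wild-type libraries 1 and 2, also overlapping.

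**Figure D4:**
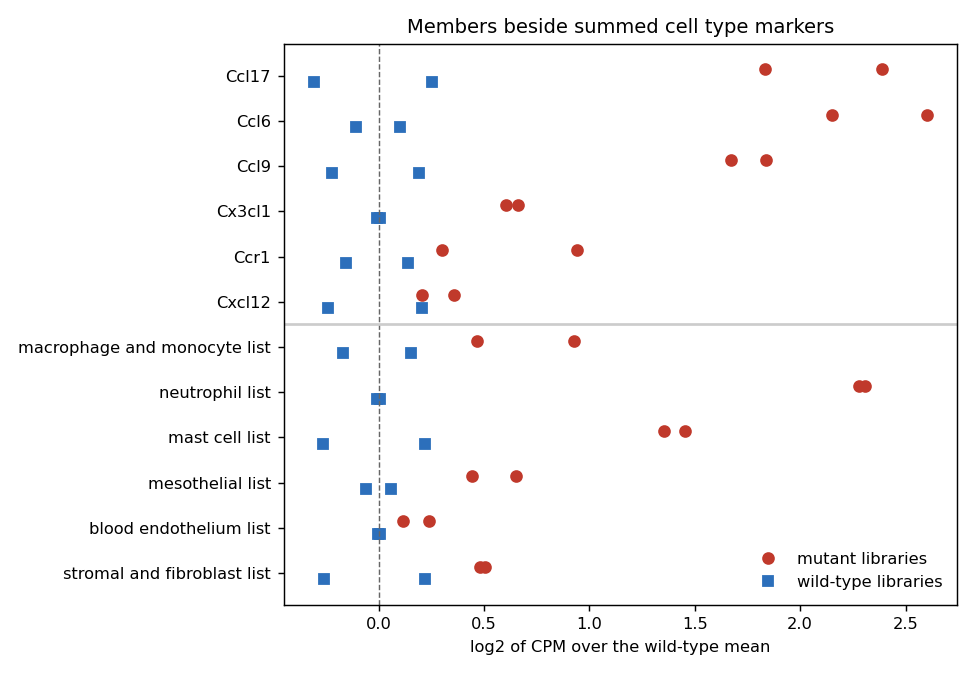
Log2 of CPM over the wild-type mean for 6 members (top) and for the summed CPM of 6 cell type marker lists (bottom), with mutant libraries as circles and wild-type libraries as squares. Ccl17, Ccl6 and Ccl9 lie further from the wild-type mean than the macrophage list (ratio of means 1.64), as do the neutrophil (4.9) and mast cell (2.64) lists.

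Ccl17 is known as a signal from dendritic cells to T cells, and no tested marker of either cell type was called. Ccr4, its receptor on T cells, had 1 and 1 counts in mutant libraries 1 and 2 and 1 and 0 counts in wild-type libraries 1 and 2. The T cell list summed to 21.2 and 21.1 CPM in mutant and 21.6 and 22.0 CPM in wild-type testes, nearly all of it from Cd247 and Lck, while Cd3e had 15 counts over the 4 libraries. The dendritic cell list summed to 71.8 and 73.1 CPM in mutant libraries 1 and 2, inside the wild-type values of 65.9 and 84.5 CPM. Most of that sum was Zbtb46, taken here as a dendritic cell marker. It was at 46.7 and 42.1 CPM in mutant libraries 1 and 2 and 36.7 and 54.1 CPM in wild-type libraries 1 and 2. Itgax, also of that list, had 19 counts over the 4 libraries. A sum carried mostly by Zbtb46 cannot show whether dendritic cells changed. Of the T cell list 3 markers were tested, and of the dendritic cell list 5.

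The summed level of the 24 CC ligands was 60.1 and 60.5 CPM in mutant libraries 1 and 2, against 28.7 and 30.1 CPM in wild-type libraries 1 and 2. Ccl6, Ccl9 and Ccl17 made up 78.6% and 73.5% of that sum in mutant testes and 33.8% and 37.5% in wild-type testes. The other 21 CC ligands summed to 12.8 and 16.0 CPM in mutant testes, below the 19.0 and 18.8 CPM in wild-type testes. Ccl28 carried that difference: without it, the remaining 20 summed to 10.6 and 12.7 CPM in mutant and 11.6 and 13.7 CPM in wild-type testes, which overlapped. This split was chosen after the values were seen and is a description.

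Among the remaining CC ligands Ccl28 had the lowest log2 fold change. Ccl28 is a chemokine of mucosal epithelia that acts through Ccr10 and Ccr3. It was read at 2.27 and 3.32 CPM in mutant libraries 1 and 2, and at 7.36 and 5.10 CPM in wild-type libraries 1 and 2. The groups did not overlap, but the libraries within each were spread. The log2 fold change of -1.14 ± 0.32 (SE) was not called (edgeR adjusted p = 0.0719), and without mutant library 2 it was called at -1.47 (adjusted p = 0.0307).

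The other tested CC ligands were read at low levels and none was called. The eosinophil attractants Ccl11 and Ccl24, which act through Ccr3, had log2 fold changes of -0.69 (95% interval -1.68 to 0.30) and 0.64 (-0.52 to 1.79). Ccl25, which guides cells of the thymus and gut through Ccr9, was at -0.07 (-0.73 to 0.60), and Ccl27a, a skin chemokine that binds Ccr10, at -0.24 (-0.95 to 0.46). Each interval includes 0 and spans more than 1 on the log2 scale. The monocyte attractants Ccl2, Ccl7 and Ccl12, the ligands of Ccr2, were below the filter, with 22 against 13, 9 against 14 and 10 against 11 counts in the mutant and wild-type groups.

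Cxcl12, the attractant that holds stem cells and migrating germ cells in their niches, was the most abundant member. It was read at 544 and 490 CPM in mutant libraries 1 and 2, and at 359 and 490 CPM in wild-type libraries 1 and 2. Mutant library 2 and wild-type library 2 stood at the same level, and wild-type library 1 was the lowest. The log2 fold change of 0.28 ± 0.14 (SE; 95% interval -0.04 to 0.61) was not called (edgeR adjusted p = 0.253), and it was 0.07 without wild-type library 1 and 0.52 without wild-type library 2, called in neither fit. Cxcl12 supplied 75.9% and 72.9% of all ligand CPM in mutant libraries 1 and 2, and 75.0% and 80.2% in wild-type libraries 1 and 2. Per kilobase of exon it stood at 63.2 CPM per kb in mutant and 51.9 CPM per kb in wild-type testes, the highest of the members. Stromal markers, whose cells are a known source of Cxcl12, summed to 11800 and 11600 CPM in mutant libraries 1 and 2, and to 9700 and 6950 CPM in wild-type libraries 1 and 2. The collagen genes Col1a1, Col1a2 and Col3a1 made up most of that sum. Of the 9 stromal markers none was called, and 8 had positive log2 fold changes. The part of stromal cells was not tested.

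Its receptors stood on opposite sides of zero. Cxcr4, the signalling receptor, found on germ cells and leukocytes, was read at 8.01 and 7.60 CPM in mutant libraries 1 and 2, against 9.16 and 15.7 CPM in wild-type libraries 1 and 2. Wild-type library 2 was far above the rest. For Cxcr4 the log2 fold change of -0.65 ± 0.28 (SE) was not called (edgeR adjusted p = 0.189) and was -0.24 without wild-type library 2 and -1.01 without wild-type library 1, called in neither fit. Cxcr7, the atypical receptor that takes up Cxcl12 and is now called Ackr3, was read at 39.9 and 44.7 CPM in mutant libraries 1 and 2, against 35.4 and 32.5 CPM in wild-type libraries 1 and 2. The mutant libraries were the higher ones, but the log2 fold change of 0.32 ± 0.12 (SE) was not called (edgeR adjusted p = 0.147). Germ cell markers, whose cells bear Cxcr4, summed to 269 and 242 CPM in mutant testes and 764 and 505 CPM in wild-type testes, with 9 of 10 tested members called lower, and their part was not tested.

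Of the other CXC ligands 3 were tested. Cxcl16, a membrane-bound chemokine of macrophages and endothelium, was read at 20.7 and 22.0 CPM in mutant libraries 1 and 2, and at 21.2 and 17.8 CPM in wild-type libraries 1 and 2, with overlapping groups. Its log2 fold change was 0.13, with a 95% interval of -0.22 to 0.48. Its receptor Cxcr6, found on T and natural killer cells, was near the filter, with 21 counts in the mutant group and 31 in the wild-type group (log2 fold change -0.74, interval -1.87 to 0.39). Cxcl14, a chemokine of epithelia and fibroblasts, was read at 11.5 and 22.7 CPM in mutant libraries 1 and 2, and at 19.1 and 22.1 CPM in wild-type libraries 1 and 2. Mutant library 1 alone was low: the log2 fold change was -0.23 in the full fit, 0.14 without that library, and -0.84 without mutant library 2, where it was called (edgeR adjusted p = 0.0337).

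Cxcl9, Cxcl10 and Cxcl11 are induced by interferon and attract T cells through Cxcr3. Cxcl10 was read at 2.09 and 3.64 CPM in mutant libraries 1 and 2, against 1.35 and 1.08 CPM in wild-type libraries 1 and 2. The groups did not overlap, and the log2 fold change of 1.27 ± 0.42 (SE) was not called (edgeR adjusted p = 0.112) except without mutant library 1, at 1.56 (adjusted p = 0.0314). Cxcl9 had 25 counts in the mutant group and 6 in the wild-type group, a ratio of 3.68 with an exact 95% interval of 1.47 to 11. Of the mutant counts, 18 came from mutant library 1, and mutant library 2 with 7 counts had a lower rate than wild-type library 2 with 5. Cxcl9 was called in the fit without mutant library 2. Cxcl11 had 3 counts in each group, and Cxcr3 had 8 counts in the mutant group and 12 in the wild-type group. These intervals cover counting error only.

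Among the tested CC receptors, Ccr1, which binds Ccl6 and Ccl9 as well as Ccl3 and Ccl5, was read at 5.37 and 8.36 CPM in mutant libraries 1 and 2, against 3.91 and 4.80 CPM in wild-type libraries 1 and 2. The mutant libraries were the higher ones, mutant library 1 by little, and the log2 fold change of 0.71 ± 0.30 (SE) was not called (edgeR adjusted p = 0.186). Ccr2, the receptor of inflammatory monocytes, stood at 0.40 (95% interval -0.52 to 1.32) and Ccr10 at 0.19 (-0.97 to 1.35), both with overlapping groups. Cx3cr1, the receptor of Cx3cl1 on macrophages, was read at 16.1 and 20.1 CPM in mutant libraries 1 and 2, and at 16.1 and 16.9 CPM in wild-type libraries 1 and 2. Its log2 fold change of 0.15 ± 0.17 (SE; 95% interval -0.25 to 0.54) was not called (edgeR adjusted p = 0.632). Whether Cx3cl1 and Cx3cr1 changed by different amounts was not tested.

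Counted over the tested members, 8 had both mutant libraries above both wild-type libraries and 4 had both below, while 9 overlapped. The 8 include Cxcl12, whose mutant library 2 and wild-type library 2 both rounded to 490 CPM. Among all tested genes 57.3% did not overlap, 28.3% with mutant higher and 29.0% with mutant lower, so the member count is near the background. An unadjusted p below 0.05 was reached by 9 of 21 members, against 25.5% of all tested genes. Of the 5 members with such a p that were not called, Cxcl10, Cxcr7 and Ccr1 were higher and Ccl28 and Cxcr4 lower in mutant testes.

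**Figure D5:**
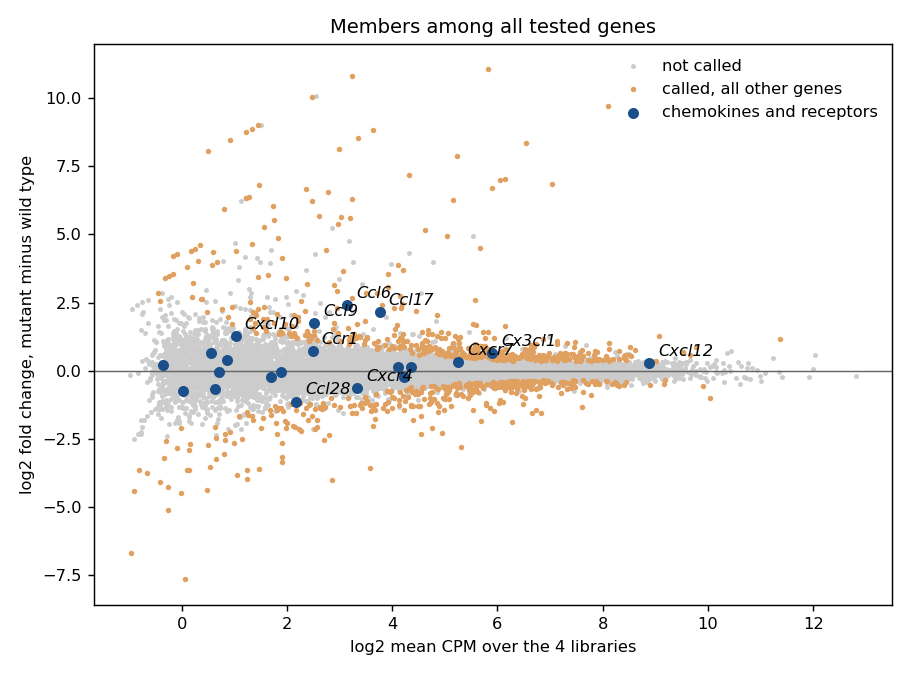
Log2 fold change (mutant minus wild type) against log2 mean CPM for all 14788 tested genes, other called genes in orange and the 21 tested members as large dots. Ccl6, Ccl9 and Ccl17 stand above the bulk at their level, Cx3cl1 at the edge of it, and most other members lie inside it.

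Among the members below the filter, Cxcr2, the receptor of neutrophils for Cxcl1, Cxcl2 and Cxcl5, had 7 and 8 counts in mutant libraries 1 and 2, against 0 and 1 in wild-type libraries 1 and 2. The ratio was 13.2 with an exact 95% interval of 2.04 to 557, and the neutrophil list given above moved with it. Its ligands were barely read: Cxcl1 had 7 counts in the mutant and 8 in the wild-type group, Cxcl2 4 and 1, and Cxcl5 3 and 2. Xcl1, a chemokine of natural killer and T cells, had 8 and 8 counts in mutant libraries and 22 and 8 in wild-type libraries 1 and 2, so its ratio of 0.471 (0.24 to 0.891) rested on wild-type library 1. Its receptor Xcr1, found on a class of dendritic cells, had 11 counts in the mutant and 15 in the wild-type group. Cxcl13, the B cell attractant, had 23 against 10 counts (ratio 2.03, interval 0.929 to 4.78), and its receptor Cxcr5 had 13 against 9. Ccr7, the homing receptor for lymph nodes, had 10 against 5 counts, and Ccr9, the receptor of Ccl25, 5 against 11. Ccr3, Ccr6, Ccr8, Ccl1 and Cxcl15 had at most 3 counts in any library.

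The 11 members with no count were Ccl8, Ccl19, Ccl20, Ccl21a, Ccl21b, Ccl21c, Ccl26, Ccl27b, Cxcl3, Cxcl17 and the receptor Cxcr1. Ccl19 and the Ccl21 genes are the ligands of Ccr7 in lymphoid tissue, and Ccl21 is also made by lymphatic vessels. The lymphatic endothelium list (6 genes, among them Prox1 and Lyve1) summed to 207 and 223 CPM in mutant and 236 and 221 CPM in wild-type testes. Pdpn made up most of that sum, at 157 and 163 CPM in mutant libraries 1 and 2 and 192 and 188 CPM in wild-type libraries 1 and 2. None of the 6 genes was called, and 4 of them had positive log2 fold changes. A sum carried mostly by Pdpn cannot show whether lymphatic vessels changed. A count of 0 allows up to 3 counts, that is 0.192 to 0.294 CPM depending on the library. Ccl21a, Ccl21b and Ccl21c, and likewise Ccl27a and Ccl27b, are near-identical copies whose reads the authors' counting can have set apart as not unique, so their values are uncertain.

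Genes that act with chemokines were counted from 5 lists with 58 tested members, of which 1 rose, 1 fell and 56 were not called, no larger a share in either direction than the 3.15% higher and 2.52% lower among all tested genes. The genes that passed belong to the proteases and glycosaminoglycan carriers that cut or present chemokines, of which 11 were tested. Mmp9, a gelatinase that can trim chemokines, was read at 19.1 and 11.9 CPM in mutant libraries 1 and 2, against 4.73 and 4.51 CPM in wild-type libraries 1 and 2, and rose by 1.72 ± 0.29 on the log2 scale (edgeR adjusted p = 0.021). Sdc4, a heparan sulfate proteoglycan of the cell surface, was read at 304 and 292 CPM in mutant libraries 1 and 2, against 400 and 403 CPM in wild-type libraries 1 and 2, and fell by 0.43 ± 0.08 on the log2 scale (edgeR adjusted p = 0.0277). For both genes the groups were well apart. The call of Mmp9 was lost without wild-type library 1 (1.75, adjusted p = 0.12) and without wild-type library 2 (1.68, adjusted p = 0.0941), and that of Sdc4 whichever of the 4 libraries was left out, at log2 fold changes of -0.46 to -0.40.

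Of 7 tested ligands named outside the scheme none was called, and Il16, a ligand of Cd4, was at 0.72 ± 0.21 (log2 fold change, SE; edgeR adjusted p = 0.0836). Cmtm3, a chemokine-like protein, was at 0.17 (edgeR adjusted p = 0.249). Of 6 tested atypical or related receptors none was called, with Pitpnm3 at 1.07 and Cmklr1, the chemerin receptor, at 0.65 (log2 fold change). Pitpnm3 moved with the library left out: it was 0.40 without wild-type library 1, and it was called without wild-type library 2, at 2.10 (edgeR adjusted p = 0.0259), and without mutant library 2, at 1.22 (adjusted p = 0.0181). Of 21 tested genes of signalling from these receptors none was called, although 10 had an unadjusted p below 0.05. Among all tested genes 5.67% were called and 25.5% had such a p. Rac2 and Dock2, a GTPase and its activator that drive leukocyte migration, were at 0.85 ± 0.22 and 1.11 ± 0.30 (log2 fold change, SE; edgeR adjusted p = 0.061 and 0.0668), and both were called without mutant library 1, at 0.96 and 1.36 (adjusted p = 0.0397 and 0.00753). Of 13 tested inducers of inflammation none was called, although 6 had an unadjusted p below 0.05, some higher and some lower in mutant testes. The inhibitor Nfkbia was at -0.40 ± 0.10 (edgeR adjusted p = 0.0558), while Tnf, Il1b and Il6 had 11, 11 and 2 counts over all 4 libraries.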

How the data were processed

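RNA of whole testes was counted in 4 libraries (2 mutant, 2 wild type). Among the tools that the submitters' processing notes list, without saying what each did, are TopHat 1.4.0, HTSeq, CASAVA 1.8.1 and DESeq2, with the genome build mm9. The authors deposited a table of counts, handled here under the unit of expected or estimated counts, since percentages stand under the gene lines. Every gene value is a whole number, so rounding changed nothing. Which annotation and strand setting the counting used is not given in the sources used here. On GENCODE M1 the exons of Cxcl16 share 552 bases, of Cxcl10 133 and of Ccl27a 8 with a gene on the other strand (Zmynd15, Art3, Il11ra1), and such reads cannot be separated. Reads in no gene made up 13.8% to 17.3% and ambiguous reads 0.602% to 0.726%, and both stayed out of library sizes.

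Counts were tested with edgeR 4.0.16 (R 4.3.3): TMM normalisation, expression filter with minimum count 10 and minimum total 15, quasi-likelihood F test with the legacy option off, genotype alone, two-sided, Benjamini-Hochberg adjustment. The script was tested on simulated data. CPM uses TMM-adjusted library sizes. CPM per kb divides by the union of exons in GENCODE M1, which held 57 of the 58 members. Ratios of low counts carry exact conditional 95% intervals, which cover counting error only. Named genes are all members, with values in every library where a member was called, had an unadjusted p below 0.05 or a mean of at least 5 CPM, and up to 4 called or otherwise up to 2 genes of each companion list. The values of 1 tested receptor and 1 companion gene are not reported here, although counts over all members or genes include them. Members and lists were chosen with earlier results of these data known. Same-numbered libraries did not deviate together (r = -0.0257 over 14788 genes). RefSeq windows (GRCm38.p6) were found for 41 members. Alternatives were DESeq2 1.42.0, limma voom 3.58.1, other normalisations and filters, a legacy fit, a block for the replicate number, and leaving out each library in turn.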

Additional observations from a re-analysis of the deposited data

How the results depend on the processing

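With 13 alternatives, 240 of 256 log2 fold changes of 20 tested members kept their direction and side of the threshold. Ccl6, Ccl17, Ccl9 and Cx3cl1 were called, and no other member, under DESeq2, limma voom, the legacy fit, each normalisation, each filter and the replicate block. The log2 fold change ran from 2.15 to 2.61 for Ccl6, 1.86 to 2.42 for Ccl17, 1.57 to 1.98 for Ccl9 and 0.60 to 0.66 for Cx3cl1 over all alternatives.

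With each library left out, members called higher ran from 0 to 5, members called lower from 0 to 2, genes called from 74 to 1295, companion genes called higher from 0 to 4 and companion genes called lower from 0 to 0 (1 in the full fit). Without a filter on low counts 500 genes were called. Companion genes called higher numbered 2 under DESeq2, median-ratio factors, the stricter filter and the replicate block, against 1 in the full fit. The direction turned in leave-one-out fits for uncalled members, whose values ran from -0.25 to 1.06 (Ccl24), -0.25 to 0.10 (Ccl25), -0.04 to 0.48 (Ccr10), -0.03 to 0.29 (Cx3cr1) and -0.84 to 0.14 (Cxcl14). The cause was not tested. With 2 libraries per group and 21 testable members of 58, depth limits what could be seen of the rest.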
